A study of Homo sapiens with 36 samples.

Results

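The EGF receptor family and its ligands were followed as 9 genes, 3 receptors (EGFR, ERBB2 and ERBB3) and 6 ligands (AREG, EREG, HBEGF, TGFA, BTC and NRG1), among the 63677 genes listed in the deposited counts. The genes were chosen by symbol, each matched to 1 Ensembl identifier. RNA was sequenced from A549, an established human lung adenocarcinoma line. In the exposed groups IL-1β was present at 1 ng/ml and cells were collected after 6, 15 or 21 days, or were taken off IL-1β after 21 days and collected 6, 15 or 30 days later. In the control groups, untreated cells were collected beside them at all 6 time points. All groups shared RPMI medium with 10% FBS and a split every 3 to 4 days, and 3 libraries labelled as biological replicates were made for each of the 12 groups. The values describe 1 cell line in culture.

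The EGF receptor family are tyrosine kinases of the cell surface that bind growth factors, pair with one another and signal through RAS and ERK and through PI3K and AKT. EGFR binds AREG, EREG, HBEGF, TGFA and BTC. ERBB3 binds neuregulins such as NRG1 and has little kinase activity of its own, and ERBB2 has no known ligand and serves as a partner of the others. The ligands are made as membrane-bound precursors, from which metalloproteinases of the ADAM family release the soluble form. In lung adenocarcinoma, EGFR and ERBB2 are known as oncogenes.

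The libraries held 9116032 to 23570026 reads on genes, and expression is given as CPM, counts normalised for sequencing depth with edgeR's TMM factors. In 11 of the 36 libraries, 6 control and 5 exposed, the mitochondrial share of counts was 11.8% to 24.6%, compared with 5.61% to 7.75% for the other 25. Replicate 2 of 8 groups is among these 11. Fits without the 11 libraries are given where they change a call among the 9 genes, and for some of the values they move. Those fits keep only 1 control library at day 6 and at day 15 after withdrawal. Of the epithelial markers, KRT8, KRT18 and CDH1 were abundant, with medians over libraries of 2183, 1096 and 187 CPM. EPCAM was at 0.232 to 1.63 CPM and KRT19 had at most 4 counts. Of 7 markers of leukocytes, endothelium and fibroblasts, PTPRC, VWF, COL3A1 and DCN had at most 3, 5, 1 and 9 counts in any library, CD14 reached 16.4 CPM and COL1A1 3.44 CPM, and PECAM1 was not analysed here. In bulk RNA, fewer cells with a transcript and less of it per cell cannot be told apart.

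All 9 genes passed the filter on low counts and were among the 19180 genes tested. A gene is said to have risen or fallen where edgeR's quasi-likelihood F-test of IL-1β against the control of the same time point gave an adjusted p below 0.05 and the change exceeded 2-fold (a log2 fold change beyond 1), called both thresholds here. HBEGF, EREG and ERBB3 were the genes past both thresholds, HBEGF and EREG higher and ERBB3 lower at days 6, 15 and 21 of IL-1β. Thus 2 of the 9 were higher at each of these times, where 1.52%, 1.94% and 2.19% of all tested genes were higher, and 1 of the 9 was lower, where 1.25%, 2.3% and 2.06% were lower. After withdrawal HBEGF alone was past both thresholds at day 6 and at day 15, against 1.08% and 0.594% of all genes higher and 0.725% and 0.36% lower. At day 30 after withdrawal edgeR found 0 of the 9 past both thresholds, where 0.433% of all genes were higher and 0.464% lower. Of the 9, 4 had an unadjusted p under 0.05 at day 30, as did 1602 of the 19180 genes. DESeq2's Wald test found 1 of the 9 there, ERBB3, and 218 of the 19180 genes. Over the 9 genes the median log2 fold change was 0.57, 0.68 and 0.69 at the exposure times and 0.37, 0.27 and 0.38 at the later ones, against medians between -0.02 and 0.02 over all tested genes. At the 3 time points of exposure and 6 days after withdrawal, all 6 ligands had a positive log2 fold change, whereas 47.6% to 49.8% of all genes did. At days 15 and 30 after withdrawal 5 of the 6 did. The sign turned for AREG at day 21 in the fit with high mitochondrial share as covariate (-0.04) and at day 6 after withdrawal without replicate 2 (-0.32), and for NRG1 at day 6 of IL-1β without replicate 3 (-0.05).

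**Figure D1:**
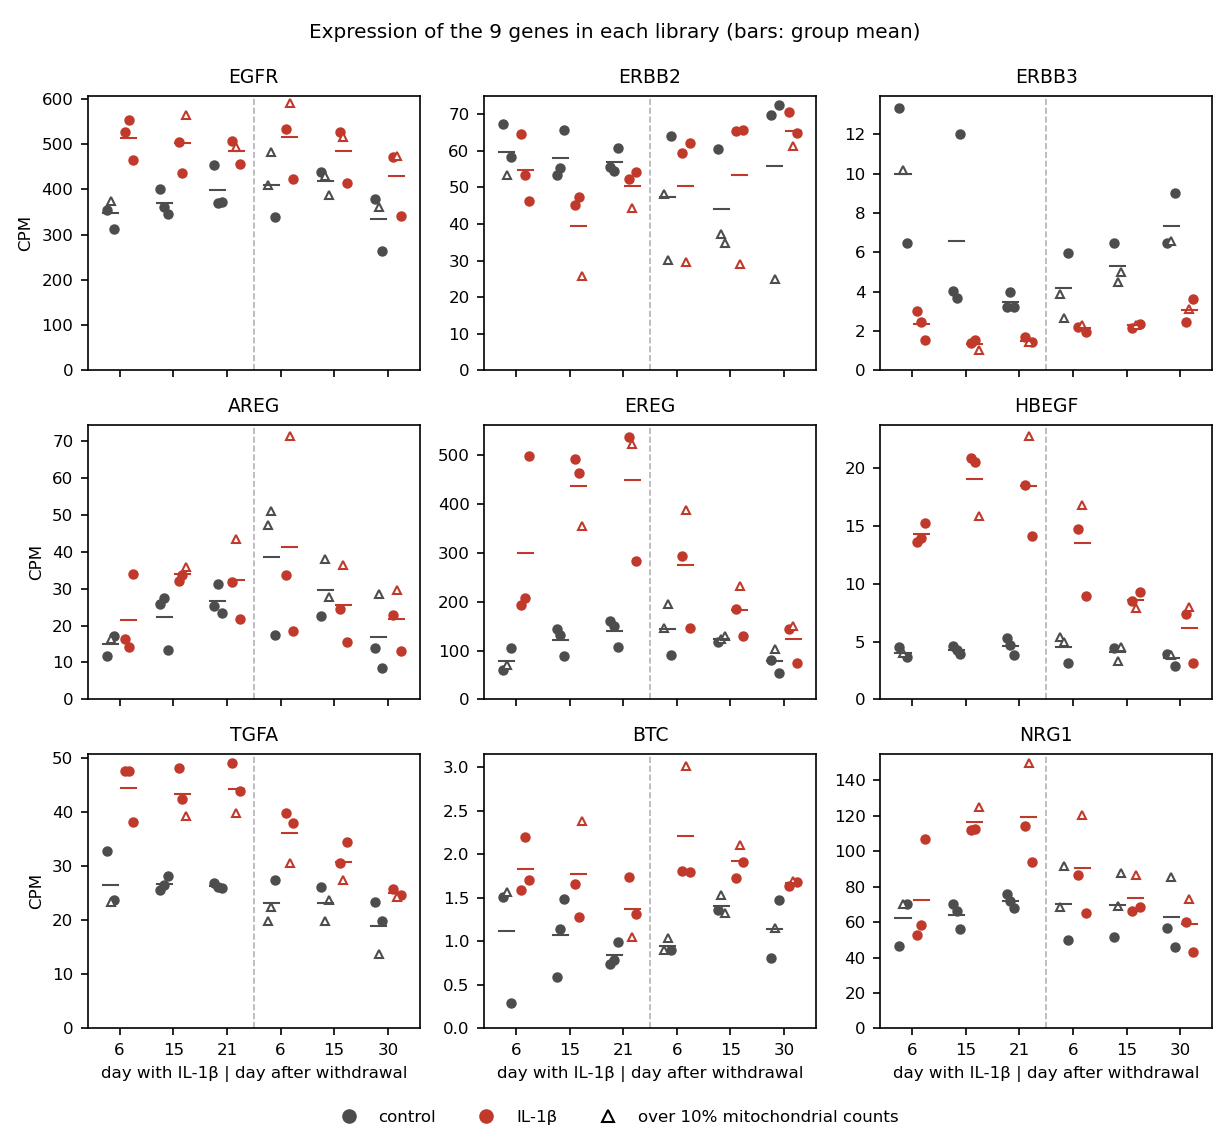
Expression of each of the 9 genes (CPM, linear axes from 0) in every control and IL-1β library at the 3 time points of exposure (days 6, 15, 21) and the 3 after withdrawal (days 6, 15, 30); bars are group means (n = 3) and open triangles mark the 11 libraries with over 10% mitochondrial counts. HBEGF and EREG of the exposed libraries lie above all control libraries of their time during exposure, and ERBB3 lies below them at all 6 time points.

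EREG and HBEGF, the ligands that rose, are shown with the 250 bases before their start (RefSeq, GRCh38.p14), to set their differing promoters beside their shared response. The first lies at chr4:74364895-74365144 on the plus strand and the second at chr5:140346604-140346853 on the minus strand, both 5′ to 3′, with capitals marking a TATA box (TATAAA) or GC boxes (GGGCGG) on either strand.
EREG: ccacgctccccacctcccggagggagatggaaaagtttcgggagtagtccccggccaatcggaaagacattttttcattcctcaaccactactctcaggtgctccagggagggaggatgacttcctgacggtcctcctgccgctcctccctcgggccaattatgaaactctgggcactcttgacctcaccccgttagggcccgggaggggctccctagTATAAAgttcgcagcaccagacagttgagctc
HBEGF: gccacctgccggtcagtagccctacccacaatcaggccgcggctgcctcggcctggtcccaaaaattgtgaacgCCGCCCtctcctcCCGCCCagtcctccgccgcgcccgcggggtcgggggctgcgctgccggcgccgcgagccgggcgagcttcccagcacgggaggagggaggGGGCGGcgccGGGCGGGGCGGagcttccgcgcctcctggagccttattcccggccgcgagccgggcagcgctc
The EREG sequence has 58.0% GC and a TATA box that begins 32 bases before the start, as 10.7% of 35116 promoters of this length have at any position. The HBEGF sequence has 76.4% GC, where the median of all promoters was 58% GC. It holds 5 GC boxes, of which at least 1 is found in 42.6% of promoters, and no TATAAA. In neither sequence were the letters TGANTCA (AP-1, in 6.57% of promoters) or the NF-κB motif (in 9.96%) found on either strand. Of the other genes, AREG has a TATA box 29 bases before its start and 1 GC box, ERBB2 has TGATTCA beginning at 222 bases before it, and BTC holds the NF-κB motif at 2 places. These matches describe letters and are not evidence of binding.

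HBEGF (ENSG00000113070, chromosome 5 from 139712428 to 139726188 of GRCh37, minus strand) encodes heparin-binding EGF-like growth factor, a ligand of EGFR. At day 15 of IL-1β the exposed libraries had 20.9, 20.6 and 15.8 CPM and the control libraries 4.61, 4.28 and 3.96 CPM, in the order of replicates 1 to 3. All exposed libraries were above all controls, as they were at days 6 and 21. At days 6, 15 and 21, in that order, the log2 fold change was 1.82, 2.16 and 1.99, with a standard error of 0.27 at each (adjusted p = 4.32e-05, 2.31e-06 and 5.92e-06, edgeR quasi-likelihood). These calls were kept in each of the 13 alternatives run, with adjusted p up to 0.0343.

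After withdrawal the exposed HBEGF levels lay closer to the controls at each later time point. At day 6 the exposed libraries had 14.7, 16.8 and 8.98 CPM against 5.42, 5.01 and 3.18 CPM, and the groups did not overlap. At day 15 they had 8.53, 7.93 and 9.32 CPM against 4.42, 3.37 and 4.57 CPM, again apart. At day 30 the values were 7.40, 8.0 and 3.18 CPM against 3.93, 3.86 and 2.85 CPM, and replicate 3 of the exposed cells lay within the range of the controls. The log2 fold changes were 1.59, 1.06 and 0.80 (standard error 0.27 at each, adjusted p = 0.000595, 0.0427 and 0.214, edgeR quasi-likelihood), which is 73.7%, 49.1% and 37.3% of the value at day 15 of IL-1β. The call 6 days after withdrawal was lost without replicate 1 (1.66, adjusted p = 0.164), without replicate 2 (1.495, adjusted p = 0.0662) and in a separate fit of that time point (1.60, adjusted p = 0.208). The call at day 15 after withdrawal was lost in 6 of 13 alternatives, among them the fit without the libraries of high mitochondrial share (1.02, adjusted p = 0.469). The response at day 30 after withdrawal minus that at day 21 of IL-1β was -1.19 on the log2 scale (95% interval -1.96 to -0.42, unadjusted p = 0.00389, adjusted p = 0.242, edgeR quasi-likelihood).

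EREG (ENSG00000124882, chromosome 4 from 75230862 to 75254466, plus strand) encodes epiregulin, which binds EGFR and ERBB4. At day 6 of IL-1β the exposed libraries had 194, 207 and 498 CPM and the control libraries 60.7, 69.5 and 105 CPM. At day 21 they had 537, 523 and 284 CPM against 161, 151 and 108 CPM. Exposed and control libraries did not overlap at days 6, 15 and 21, although the exposed libraries differed among themselves by more than 1.5 times at day 6 and day 21. EREG had log2 fold changes of 1.93, 1.85 and 1.68 at these times (standard errors 0.39, 0.38 and 0.38, adjusted p = 0.00167, 0.00188 and 0.00438, edgeR quasi-likelihood). Without replicate 1 the values were 2.03, 1.91 and 1.64 and the calls were lost (adjusted p = 0.16, 0.145 and 0.262). The call at day 21 was also lost without replicate 2 (1.61, adjusted p = 0.0831).

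After withdrawal EREG had 294, 388 and 146 CPM at day 6 in the exposed libraries, against 146, 195 and 91.8 CPM, and the groups overlapped. At day 15 it had 185, 231 and 130.05 CPM against 118, 124 and 128.8 CPM, narrowly without overlap. At day 30 it had 144, 150 and 74.7 CPM against 80.0, 103 and 53.4 CPM, an overlap again. Its log2 fold changes at the 3 times off IL-1β were 0.93, 0.56 and 0.64, with adjusted p of 0.305, 0.78 and 0.712 by edgeR, or 48.3%, 28.9% and 33.2% of the value at day 6 of IL-1β. Without replicate 3, EREG was past both thresholds at day 6 after withdrawal (1.00, adjusted p = 0.00581). Without the 11 libraries of high mitochondrial share the value there was 1.28, with 1 control library left. The response at day 30 minus that at day 21 of IL-1β was -1.04 (95% interval -2.12 to 0.04, adjusted p = 0.86).

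TGFA (chromosome 2 from 70674416 to 70781325, minus strand) encodes transforming growth factor alpha, another EGFR ligand. At day 21 of IL-1β its values were 49.0, 39.9 and 43.8 CPM with IL-1β and 27.0, 26.2 and 25.9 CPM without it. The exposed libraries were above all controls at each of the 6 time points. TGFA had log2 fold changes of 0.74, 0.70 and 0.75 during exposure and of 0.64 at day 6 after withdrawal, with adjusted p of 0.00621, 0.00788, 0.00386 and 0.0336 (edgeR quasi-likelihood) but below the 2-fold threshold. At days 15 and 30 after withdrawal it was 0.41 and 0.39 (adjusted p = 0.405 and 0.485).

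AREG (chromosome 4 from 75310853 to 75320722, plus strand), the gene of amphiregulin, lies near EREG and BTC in a cluster of ligand genes. At day 21 of IL-1β AREG had 31.9, 43.4 and 21.7 CPM against 25.4, 31.3 and 23.4 CPM in control cells, and the groups overlapped. During exposure the log2 fold change of AREG was 0.52, 0.60 and 0.27, and later it was 0.09, -0.21 and 0.38, each with a standard error of 0.46 or 0.47 and an adjusted p of 0.534 or more. Its level is uncertain, because a near-identical copy listed as AREGB (ENSG00000205595) took about as many reads, and 47.1% to 56.6% of the counts of the pair were on AREG. With the counts of both summed, an alternative chosen after seeing the data, the values were 0.55, 0.66, 0.28, 0.10, -0.18 and 0.34 in the same order. AREG was also the ligand that moved most with the mitochondrial share: the 11 libraries of high share deviated from their group means by 0.46 on average on the log2 scale and the other 25 by -0.20. In the fit with high mitochondrial share as covariate the values of AREG were 0.78, 0.36, -0.04, 0.35, 0.02 and 0.45 in the same order. Without the 11 libraries they were 0.02 at day 21 and 0.67 at day 30 after withdrawal. At day 6 after withdrawal, where 1 control library was left, the value was 0.62. The adjusted p of AREG in the covariate fit was above 0.05 at all 6 time points.

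BTC (chromosome 4 from 75669969 to 75719733, minus strand) encodes betacellulin and was near the limit of what these libraries could show, with 5 to 41 counts. At day 6 after withdrawal it had 1.80, 3.01 and 1.80 CPM in exposed and 0.903, 1.04 and 0.902 CPM in control libraries, without overlap. The log2 fold change of BTC there was 1.18 (standard error 0.38, adjusted p = 0.12), and at the other times it was between 0.45 and 0.73 with adjusted p of 0.356 to 0.841. In the fit with high mitochondrial share as covariate, this value was 1.22 (adjusted p = 0.0416, edgeR quasi-likelihood).

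NRG1 (chromosome 8 from 31496738 to 32713184, plus strand) encodes neuregulin 1, a ligand of ERBB3. A lincRNA on the same strand, RP11-1002K11.1, overlaps 8.6% of its exons, so some reads could have been left out as ambiguous or counted there. At day 15 of IL-1β NRG1 had 112, 112 and 125 CPM with IL-1β and 70.3, 66.2 and 56.0 CPM without it. The groups did not overlap at days 15 and 21. The log2 fold change of NRG1 was 0.22, 0.86 and 0.73 at the exposure times (adjusted p = 0.942, 0.0647 and 0.153, edgeR quasi-likelihood). After withdrawal it was 0.37, 0.09 and -0.09, with overlap at all 3 time points.

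ERBB3 (ENSG00000065361, chromosome 12 from 56470583 to 56497289, plus strand) was the receptor past both thresholds, and it was lower with IL-1β. At day 6 the exposed libraries had 3.04, 2.48 and 1.56 CPM and the control libraries 13.3, 10.2 and 6.50 CPM. At day 15 they had 1.40, 1.57 and 1.03 CPM against 4.02, 3.68 and 12.02 CPM. At day 21 they had 1.68, 1.42 and 1.44 CPM against 3.25, 3.98 and 3.23 CPM. Exposed libraries were below all controls each time, and the controls themselves ran from 13.3 CPM down to 3.23 CPM over these days. Counts of ERBB3 were low, at 10 to 44 in these exposed libraries and 20 to 78 in those after withdrawal. ERBB3 fell, with log2 fold changes of -2.09, -2.27 and -1.20 at days 6, 15 and 21 (standard errors 0.36, 0.37 and 0.36, adjusted p = 0.000244, 9.78e-05 and 0.0428, edgeR quasi-likelihood). Without replicate 3, whose control library had 12.02 CPM, the value at day 15 was -1.36 (adjusted p = 0.00441). The call at day 6 was lost without replicate 1 (adjusted p = 0.0651), and that at day 15 in a separate fit of its 6 libraries (adjusted p = 0.08). The call at day 21 was lost in 6 of 13 alternatives, with adjusted p up to 0.368. Among these was the fit without the 11 libraries of high mitochondrial share (-1.14, adjusted p = 0.134, edgeR quasi-likelihood).

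After withdrawal ERBB3 was lower in every exposed library than in any control of its time point. At day 6 the exposed libraries had 2.18, 2.32 and 1.97 CPM against 3.87, 2.68 and 5.97 CPM in the controls. At day 15 they had 2.18, 2.33 and 2.38 CPM against 6.49, 4.49 and 4.98 CPM, and at day 30 2.44, 3.12 and 3.65 CPM against 6.45, 6.56 and 9.0 CPM. At none of these times did the groups overlap. The log2 fold changes were -0.98, -1.22 and -1.25 (standard errors 0.36, 0.36 and 0.35). In edgeR's quasi-likelihood test the unadjusted p was 0.0115, 0.00193 and 0.00113. The adjusted p was 0.222, 0.0966 and 0.0726, so none was past both thresholds. Over the 13 alternatives the adjusted p ran from 0.0152 to 0.919 at day 15 and from 0.0179 to 0.798 at day 30, and was highest without replicate 1. Without the 11 libraries of high mitochondrial share the adjusted p at day 30 was 0.214 (edgeR quasi-likelihood). At day 15 that fit kept 1 control library, and the log2 fold change was -1.497. ERBB3 was past both thresholds in 2 alternatives at day 15 and in 4 at day 30, among them at both times the fit with high mitochondrial share as covariate and the fit without replicate 3. The value at day 6 after withdrawal was -0.53 without replicate 3 (adjusted p = 0.593, edgeR quasi-likelihood). It was -1.501 without the 11 libraries, where 1 control library was left. Between day 30 after withdrawal and day 21 of IL-1β the response changed by -0.06 (95% interval -1.12 to 1.00, adjusted p = 0.99), an interval that reaches about 2-fold in both directions.

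EGFR (chromosome 7 from 55086710 to 55279321, plus strand) had the highest CPM of the 9 genes in control cells. At day 6 of IL-1β it had 526, 552 and 464 CPM against 354, 374 and 312 CPM, and the groups did not overlap. The log2 fold change of EGFR was 0.57 there (95% interval 0.24 to 0.90, adjusted p = 0.0387, edgeR quasi-likelihood), below the 2-fold threshold. It was 0.44 and 0.29 at days 15 and 21, also without overlap, and 0.33, 0.21 and 0.36 after withdrawal, with overlap (adjusted p = 0.112 to 0.823). The exposed library was higher in all 3 same-numbered pairs at all 6 time points, but same-numbered libraries were not stated to share a culture. Leaving out the 11 libraries of high mitochondrial share moved the EGFR value to 0.51 on day 6 off IL-1β and to 0.11 on day 15. Each of these 2 values rests on 1 control library. Without replicate 1 the adjusted p at day 6 of IL-1β was 0.619. With high mitochondrial share as covariate and a term for replicate number, it was 8.79e-05 and 0.0233 at days 6 and 15 (edgeR quasi-likelihood). In that fit it was 0.226 at day 21, and 0.021, 0.224 and 0.047 at days 6, 15 and 30 after withdrawal. The EGFR values there, 0.64 at most, stayed below the 2-fold threshold.

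ERBB2 (chromosome 17 from 37844167 to 37886679, plus strand) had 45.2, 47.3 and 25.8 CPM at day 15 of IL-1β, below the 53.3, 55.3 and 65.5 CPM of the control cells. This was a log2 fold change of -0.55 (95% interval -1.24 to 0.13, adjusted p = 0.42), or -0.33 without the 11 libraries of high mitochondrial share. At the other 5 time points it lay between -0.18 and 0.27, and its sign at 4 of them turned under other settings. ERBB2 was the member with the largest deviation downward in the libraries of high mitochondrial share, at -0.40 on the log2 scale against 0.18 in the others. The genes MIEN1 and PGAP3 on the opposite strand overlap 5.5% and 1.4% of its exons, and without a stated strand setting their reads could not be told apart there.

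**Figure D2:**
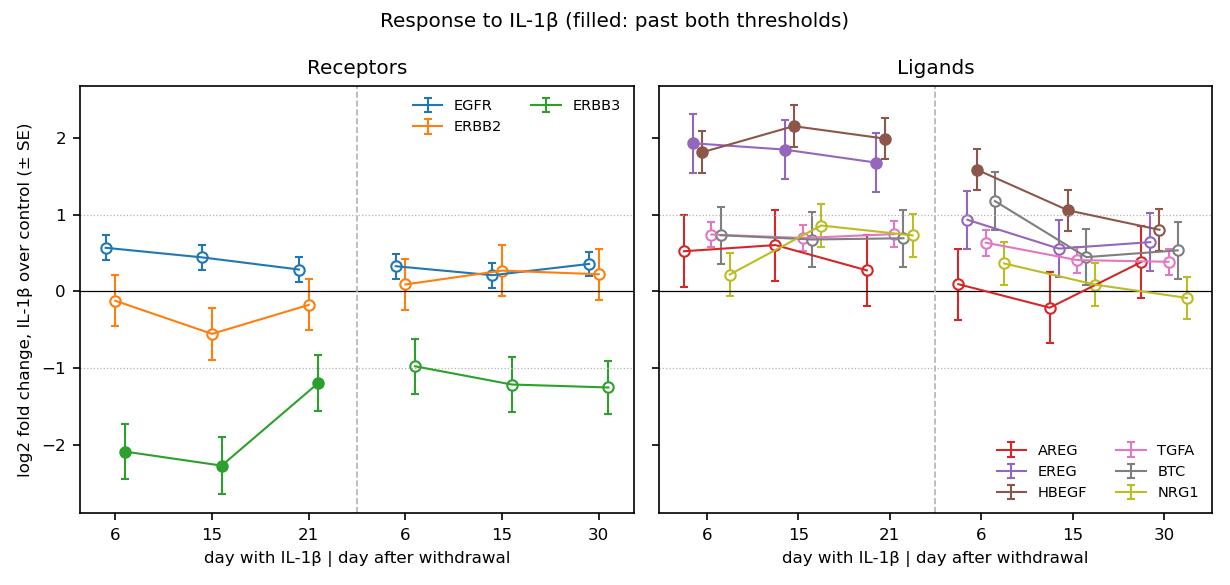
Log2 fold change of IL-1β over control (± standard error of the edgeR fit) for the 3 receptors (left) and the 6 ligands (right) at the 3 time points of exposure (days 6, 15, 21) and the 3 after withdrawal (days 6, 15, 30); filled points are past both thresholds, and dotted lines mark a 2-fold change. HBEGF, filled at 5 of 6 times, comes down from 2.16 to 0.80, while ERBB3 lies between -0.98 and -1.25 after withdrawal.

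In all, 36 differences of response were tested for the 9 genes, day 21 against day 6 of IL-1β and each time after withdrawal against day 21. Of these, 0 had an adjusted p under 0.05 in edgeR's quasi-likelihood test and 0 in DESeq2's Wald test, with 4 at an unadjusted p under 0.05 in the former. These 4 were HBEGF at days 15 and 30, EREG at day 15 and NRG1 at day 30 after withdrawal, all smaller than at day 21 (-0.94, -1.19, -1.12 and -0.82). The 9 genes of untreated cells were also compared between the collections at day 30 after withdrawal and day 6 of IL-1β. TGFA had the lowest p, with a difference of -0.48 (unadjusted p = 0.00851, adjusted p = 1, edgeR quasi-likelihood).

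Per kilobase of canonical transcript, the median level over the 18 control libraries was 37.6 CPM per kb for EGFR, 24.5 for EREG, 19.8 for AREG, 12.2 for ERBB2, 5.99 for TGFA, 5.76 for NRG1, 1.76 for HBEGF, 0.975 for ERBB3 and 0.410 for BTC. TGFA and NRG1, neighbours in this order, overlapped in range (3.34 to 7.96 against 3.83 to 7.66 CPM per kb), as did EREG and AREG (11.6 to 42.3 against 6.89 to 41.3). AREG counted alone holds only part of the reads of its pair, and AREG with AREGB had a control median of 38.6 CPM per kb (14.6 to 82.3), a range that holds the medians of EGFR and EREG. During exposure EREG stood first of the 9 genes, with a median of 100.4 CPM per kb over 9 libraries against 51.0 for EGFR, where the controls had 23.4 and 37.2. The AREG pair was at 50.9 in these exposed libraries. Over the 9 exposed libraries after withdrawal EGFR stood first again, with 47.8 against 32.4 for EREG and 38.1 for the AREG pair. These medians pool 3 time points, and the order was not the same in every library. EREG ranged from 16.2 to 84.0 there and EGFR from 34.4 to 59.6. Both highest values came from replicate 2 at day 6 after withdrawal, where EREG was above EGFR. In the exposed cells ERBB3 was the lowest of the 9 during exposure, at a median of 0.278 CPM per kb.

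The transcripts of the 5 EGFR ligands EREG, AREG with AREGB, TGFA, HBEGF and BTC were added up per kilobase. The sum at day 21 was 167 ± 46.9 CPM per kb with IL-1β and 80.8 ± 10.6 CPM per kb without it (SD, n = 3), with a lowest exposed library of 114 and a highest control of 88.9. At day 30 after withdrawal it was 71.5 ± 23.97 against 52.0 ± 21.1, and the groups overlapped. EREG made up 57.6% ± 4.1 of the sum at day 21 with IL-1β against 37.3% ± 3.5 in control cells, and the AREG pair 30.5% ± 3.4 against 51.9% ± 3.2. HBEGF took 4.77% ± 0.54 against 2.43% ± 0.22. At day 30 after withdrawal the share of EREG was 37.2% ± 2.3 against 33.7% ± 3.2 and the ranges overlapped. These sums count RNA and not released ligand.

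**Figure D3:**
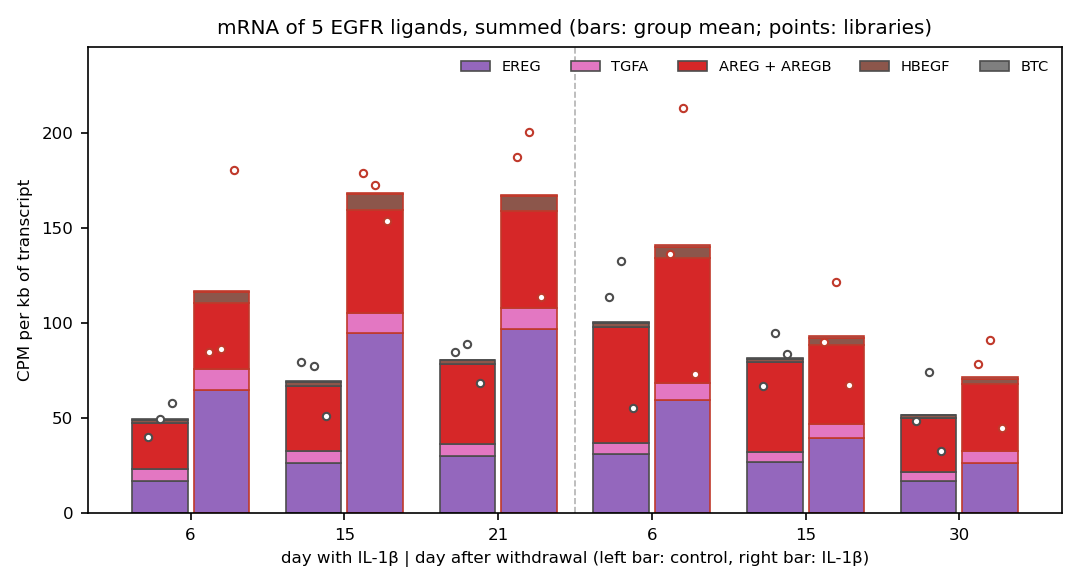
Summed expression of 5 EGFR ligands (CPM per kb of canonical transcript, axis from 0) in control (left bar, grey edge) and IL-1β cells (right bar, red edge) at each time point, as stacked group means (n = 3) with the sum of each library as a circle. At day 21 the IL-1β bar reaches 167 and the control bar 80.8, and at day 30 after withdrawal 71.5 and 52.0.

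Of 6 other members of the family, EGF, NRG2 and NRG4 were tested, and ERBB4, EPGN and NRG3 had at most 2 counts in any library. None of the 3 was past both thresholds at any time in edgeR or in DESeq2. In edgeR 1 had an unadjusted p under 0.05 at day 6 and 1 at day 30 after withdrawal, as did 1840 and 1602 of the 19180 genes. NRG4 was the best measured, at 3.79 to 15.4 CPM. Of 10 genes linked to the shedding of ligands, ADAM19, a metalloproteinase, rose by 1.21 at day 21 of IL-1β and by 1.16 at day 6 after withdrawal on the log2 scale (standard error 0.16 at each, adjusted p = 3.1e-06 and 3.88e-05, edgeR quasi-likelihood). Thus 1 of the 10 was higher at each of these 2 times, where 2.19% and 1.08% of all tested genes were higher. The call at day 6 after withdrawal was lost without replicate 1. In edgeR the other 9, with ADAM10 and ADAM17 among them, were past both thresholds at no time, and the median of the list at day 21 was 0.21. By adjusted p under 0.05 alone, ADAM19 was higher at all 6 time points (adjusted p up to 0.038, edgeR quasi-likelihood). ADAM17 was higher at day 15 of IL-1β (0.54, adjusted p = 0.0396). ADAM12 was higher there and at day 6 after withdrawal (0.76 and 0.88, adjusted p = 0.0399 and 0.0272).

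Among 22 adaptors and effectors, which carry the signal from the receptors to RAS, ERK and AKT, GRB7, an adaptor that binds ERBB2, was the gene past both thresholds. Thus 1 of the 22 was lower at days 15 and 21, where 2.3% and 2.06% of all tested genes were lower. GRB7 had as few as 3 counts in a library. On the log2 scale GRB7 fell by 2.09 on day 15 and fell by 2.04 on day 21 (standard errors 0.63 and 0.62, adjusted p = 0.0429 and 0.0434, edgeR quasi-likelihood), and without replicate 1 neither call held. The median of this list stayed between -0.04 and 0.12 at the 6 time points. Of 14 negative regulators of the receptors, 13 were tested and 0 were past both thresholds at any time in edgeR or DESeq2. In edgeR 3, 6, 5, 2, 2 and 3 had an unadjusted p under 0.05, as did 2262, 3280, 2632, 1840, 1679 and 1602 of the 19180 genes. Below the 2-fold threshold, PTPN1 was higher during exposure and at day 6 after withdrawal (0.50, 0.61, 0.76 and 0.60, adjusted p up to 0.00542, edgeR quasi-likelihood). PTPRJ was higher at all 3 times after withdrawal (0.66, 0.61 and 0.72, adjusted p up to 0.034). At an adjusted p under 0.05 ERRFI1 was lower at days 15 and 21 (-0.71 and -0.83) and LRIG3 at day 21 (-0.56).

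Of 10 genes known as outputs of ERK signalling, 3 rose and 1 fell at day 6 of IL-1β, where 1.52% of all tested genes were higher and 1.25% lower. SPRY4, an inhibitor of the pathway, rose by 1.49, and ETV4 and ETV5, transcription factors, rose by 1.21 and 1.06 on the log2 scale (adjusted p = 0.00216, 0.0188 and 0.00663, edgeR quasi-likelihood). EPHA4, a receptor of ephrins with at most 26 counts, fell by 3.02 on day 6 and fell by 2.41 on day 15 (adjusted p = 0.000769 and 0.00248). SPRY4 was again past both thresholds at day 21, at 1.05 (adjusted p = 0.027). DUSP4, DUSP6, SPRY2, PHLDA1, CCND1 and EPHA2 were past both thresholds at no time. After withdrawal 0 of the 10 were past both thresholds in edgeR or DESeq2. In edgeR 1, 1 and 2 had an unadjusted p under 0.05 there, as did 1840, 1679 and 1602 of the 19180 genes. Without replicate 1 none of the 10 was past both thresholds at any of the 6 time points, while leaving out the 11 libraries of high mitochondrial share gave 4, 2 and 1 of them during exposure.

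**Figure D4:**
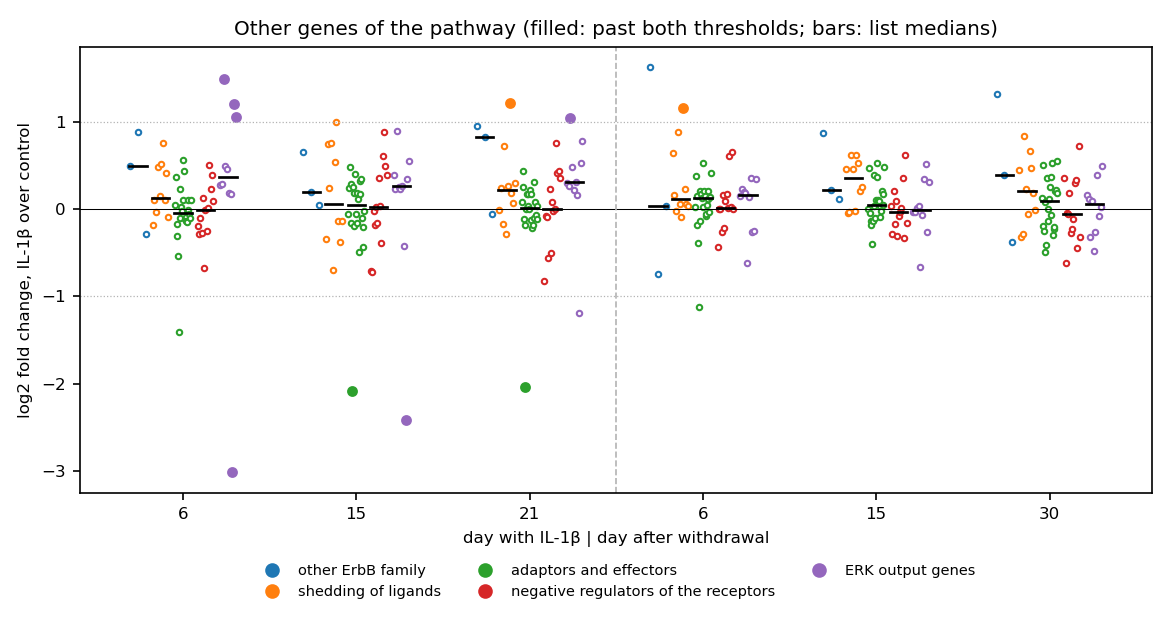
Log2 fold change of IL-1β over control for each tested gene of 5 lists around the EGF receptor family, at the 3 time points of exposure (days 6, 15, 21) and the 3 after withdrawal (days 6, 15, 30); filled points are past both thresholds, black bars are list medians and dotted lines mark a 2-fold change. The filled points are ADAM19, GRB7 and the ERK output genes ETV4, ETV5, SPRY4 and EPHA4, and the medians of the adaptors lie between -0.04 and 0.12.

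Epithelial markers were lower in the exposed groups where ERBB3 fell. KRT8, KRT18 and CDH1 were past both thresholds and lower at days 6, 15 and 21, which are 3 of the 4 tested of 5 listed, where 1.25%, 2.3% and 2.06% of all genes were lower. Without replicate 1 the calls were 0, 2 and 1 of the 4. At day 6 after withdrawal KRT18 and CDH1 were past both thresholds. At days 15 and 30 after it 0 of the 4 were in edgeR or DESeq2. In edgeR 4 and 2 had an unadjusted p under 0.05 there, as did 1679 and 1602 of the 19180 genes. At day 30 CDH1 was at -0.61, KRT8 at -0.62, KRT18 at -0.52 and EPCAM at -1.04 (standard errors 0.29, 0.30, 0.33 and 0.49). ERBB3 was at -1.25 there (standard error 0.35). EPCAM was past both thresholds at no time. The sum of the 5 markers ran from 899 to 1740 CPM in the 9 exposed libraries during exposure and from 4291 to 6835 CPM in the 9 controls. After withdrawal it ran from 1085 to 5142 CPM against 2901 to 7624 CPM. Of the other cell markers, COL1A1 was past both thresholds at days 6 and 21, and the sum of the 6 measured was 5.54 to 18.6 CPM in exposed and 5.85 to 11.4 CPM in control libraries during exposure. The part of either set in the responses of the 9 genes was not tested.

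The genes whose pattern was most like that of each responding gene were sought among all tested genes by Pearson's r over the 12 group means of log2 CPM, which share libraries and time points. For HBEGF they were NT5E (0.99), RCAN1 (0.99) and GLIPR1 (0.99), for EREG F2RL2 (0.98) and MICAL2 (0.98), and for ERBB3 PDE3A (0.98), ARRB1 (0.97) and THRA (0.97). Among the 9 genes themselves, HBEGF followed EREG (0.96) and TGFA (0.95) most closely over the same 12 means, and AREG followed its neighbour EREG less (0.67). ERBB3 ran opposite to EREG (-0.94) and to HBEGF (-0.91).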

How the data were processed

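RNA was sequenced from 36 A549 libraries, with 3 replicates in each of 12 groups, which were assigned from the labels. The authors deposited raw counts per Ensembl gene, made from single-end reads aligned to GRCh37. The submitters' processing notes name bcl2fastq 2.17, TopHat2 2.0.14, Bowtie2 2.2.5 and HTSeq 0.6.1. The library kit keeps strand, but the strand setting and annotation release of the counting are not given in the sources used here. Reads on no gene (8.48% to 18.6%) and ambiguous reads (2.62% to 4.18%) were left out of library sizes.

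Genes were kept by filterByExpr (19180 genes), scaled by TMM and fitted jointly over the 36 libraries, 1 term a group (24 residual degrees of freedom) by edgeR 4.0.16 in R 4.3.3. Exposed and control cells were compared by the quasi-likelihood F-test, with Benjamini-Hochberg adjustment over all genes tested. On simulated counts for 19180 genes with 200 changed by 4-fold at day 21 of IL-1β, 169 (84.5%) were recovered with 15 false calls. How often smaller changes, or changes after withdrawal, would be found was not simulated. No 2 libraries of a group agreed within counting noise. DESeq2 1.42.0, other scalings, filters and fits, fits without doubted libraries and each replicate left out were run as alternatives. Symbols, positions and transcript lengths came from GENCODE v44lift37 and promoters from RefSeq, which held 5 of the 8 genes looked up. EGFR, ERBB3 and TGFA were not matched, and NRG1 was not looked up.

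The genes, lists and tests were chosen with earlier results of these data known. All 9 genes were named, with up to 3 genes of each list past both thresholds at most time points and the 3 genes most like each gene past both thresholds at 2 or more, of which 1 gene is not reported here. ETV4 was named after its values were seen.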

Additional observations from a re-analysis of the deposited data

How the results depend on the processing

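Over 738 values of 57 results under alternative settings, the 22 that changed sign belong to 11 results whose log2 value was within 0.27 of 0. For ERBB2 these were 0.064 and 0.0496 at day 21 of IL-1β where a high mitochondrial share was a covariate, without and with the replicate block. At day 6 after withdrawal they were -0.163 and -0.145 in the same fits and -0.055 without the libraries of high share, which at day 30 gave -0.068. For AREG the covariate gave -0.041 and, with the block, -0.017 at day 21, and 0.019 at day 15 after withdrawal. For NRG1 at day 30 they were 0.059 with total counts only and 0.012 without the libraries of high share. For ERBB3, the response at day 30 minus that at day 21 was 0.046 with total counts only. The others came from leaving out replicates, where ERBB2 ran from -0.032 to 0.192, from -0.055 to 0.432 and from -0.079 to 0.449 at days 6, 15 and 30 after withdrawal, and AREG from -0.315 to 0.405 and from -0.367 to 0.0011 at days 6 and 15. NRG1 ran from -0.0503 to 0.453 at day 6 of IL-1β, and from -0.0805 to 0.337 and from -0.192 to 0.0028 at days 15 and 30 after withdrawal. The ERBB3 difference ran from -0.283 to 0.098. Scaling by total counts alone moved the median of all genes to 0.21 at day 15 after withdrawal.

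The number of the 9 genes past both thresholds was 3, 3, 3, 1, 1 and 0 at the 6 time points. By adjusted p alone it was 5 at day 6 of IL-1β and 2 after 6 days of withdrawal, where it was 0 in separate fits and 2 with the covariate. At day 15 after withdrawal it was 0 with DESeq2's size factors, no filter, separate fits or an adjusted p under 0.01, and 2 with the covariate. At day 30 it was 1 with DESeq2, with the covariate and with the covariate and block. Over the fits that each leave out a replicate it ran from 1 to 3 at days 6 and 21 of IL-1β, from 0 to 2 at days 6 and 15 after withdrawal and from 0 to 1 at day 30. The cause of these moves was not tested. Of the differences of response, 1 passed in the covariate fit with the block, HBEGF at day 30 after withdrawal minus day 21 (-1.16, adjusted p = 0.0446, edgeR quasi-likelihood).

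Same-numbered control and exposed libraries were not stated to share a culture, so the replicate number was not taken as a pairing. Their deviations correlated between -0.34 and 0.72, with a mean of 0.28 and 14 of 18 pairs over 0.1. The main fit leaves out what same-numbered libraries share. With the replicate block the adjusted p of EGFR at day 6 of IL-1β was 0.00503, against 0.0387 in the main fit (edgeR quasi-likelihood). With the replicate block alone the numbers past both thresholds were 3, 3, 3, 1, 1 and 0. The 5 to 41 counts of BTC, the 10 to 78 counts of ERBB3 in exposed libraries and the 3 libraries a group limit which small changes could be shown.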
